A study of Homo sapiens with 6 samples.

Results

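The stress-induced factor NUPR1, the transcription factor ATF4, its target genes and the cytosolic tRNA synthetases were examined in THP-1 cells after knockdown (KD) of NFIC. The 40 genes were found by their names in a deposited table of 33981 genes. They were chosen from the known biology of ATF4, with the raw counts of the NFIC KD samples (N1, N2 and N3) and the scrambled control samples (C1, C3 and C4) already seen, so their differences between the groups are given as a description. All 40 were present once in the table and all 40 passed the filter on low counts. THP-1 is a monocytic cell line from an acute leukemia, and the data are therefore from 1 line and from bulk RNA of sorted cells. The 3 NFIC KD samples had received a lentiviral NFIC shRNA and the 3 control samples a scrambled shRNA. The study names 1 NFIC hairpin for these data, so loss of NFIC and other effects of that hairpin cannot be told apart. GFP-positive cells were sorted 4 days after infection in both groups. The study's methods call the control a GFP-only vector, whereas its results and the labels call it scrambled, which is the term kept below. The labels do not say whether the 3 samples of a group were separate cultures, so the spread between them may be technical.

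ATF4 is the main effector of the integrated stress response. Kinases that sense amino acid shortage, unfolded protein, heme deficiency or viral RNA phosphorylate the initiation factor eIF2alpha, which slows general translation and increases translation of the ATF4 mRNA. ATF4 protein then pairs with other basic leucine zipper factors, such as the C/EBP proteins, and binds composite sites in genes for amino acid synthesis, amino acid import, tRNA charging and feedback on the response itself. Because ATF4 is controlled in large part at translation, its mRNA level need not follow its activity.

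Total counts were between 20369543 and 24809720 per sample, and C3 and N3 were the most deeply sequenced samples of their groups. A gene was regarded as detectable from 3 counts, which is 0.122 to 0.146 CPM (counts scaled to library size) depending on the sample. This limit and the interval given for NUPR1 cover counting error only, as no molecular identifiers are described for these reads. NFIC itself was at 42.1, 41.4 and 42.2 CPM in the control samples and at 19.4, 22.3 and 21.4 CPM in the NFIC KD samples, which is 50.1% of the mean control level. The 10 monocytic markers examined, among them CD14, CD33, LYZ and SPI1, were all detected, and their summed level was from 1915 to 2091 CPM in the controls and from 1990 to 2104 CPM after KD. Several single markers varied more than the sum. Over the 6 samples LYZ lay between 495 and 1035 CPM, CD68 between 124 and 269 CPM and CD33 between 16.7 and 35.3 CPM. These ranges pool both groups and do not show whether a marker was higher or lower after KD. The similar sums therefore do not show that the single markers were unchanged. CEBPA, another of the 10 markers, was at 595 ± 37.4 CPM in the controls and 419 ± 32.6 CPM after KD (SD, n = 3 each). The T cell markers CD3E, CD3G and CD2 and the B cell marker MS4A1 had no row in the table. The 3 fibroblast markers had summed levels of 7.60 to 8.55 CPM in the controls against 3.20 to 3.88 CPM after KD, and the 3 epithelial markers of 4.95 to 5.77 CPM against 0.953 to 1.72 CPM. The B cell marker CD79A was at most at 2.76 CPM in any sample, the T cell marker CD3D at 0.0433 CPM and the erythroid markers HBB and ALAS2 at 0.130 and 0.139 CPM. The part of these low signals in the results below was not tested.

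The composite site through which ATF4 acts was searched first, because many of the members were listed as ATF4 targets. The letters TGATGNAA, a core of the C/EBP-ATF response element, were searched on both strands from 250 bases before to 50 bases after each RefSeq gene start (build GRCh38.p14). Of the 40 members, 32 had a promoter entry. NUPR1, EIF4EBP1, PSPH, SHMT2, PYCR1, LARS1, VARS1 and YARS1 had none. A match was found in 10 of the 32 (31.2%), compared with 1217 of all 27305 genes with an entry (4.46%). Among the cytosolic tRNA synthetases it was 7 of 14, and among the mitochondrial tRNA synthetases 1 of 14 (7.14%). The other members had 3 of 18 (16.7%), while the amino acid transporters of the ATF4 program had 4 of 7 (57.1%) and the partner factors 2 of 6 (33.3%). ATF4 targets were one of the grounds on which these genes were listed, so this share describes the list. A match is a description of the letters and not evidence of binding. The 10 matching windows are shown 5′ to 3′ on the strand of the gene, because they make the shared element visible across enzymes that charge different amino acids. Capitals mark the match, which reads as TTGCATCA or TTTCATCA where it lies on the opposite strand.
AARS1: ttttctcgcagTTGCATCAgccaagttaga
CARS1: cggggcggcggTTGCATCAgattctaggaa
GARS1: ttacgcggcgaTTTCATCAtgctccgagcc
IARS1: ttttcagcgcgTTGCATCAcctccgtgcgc
MARS1: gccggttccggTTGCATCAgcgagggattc
NARS1: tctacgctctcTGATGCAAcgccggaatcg
TARS1: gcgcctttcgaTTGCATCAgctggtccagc
ASNS: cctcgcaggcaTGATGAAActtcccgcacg
CHAC1: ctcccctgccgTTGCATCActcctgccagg
CEBPG: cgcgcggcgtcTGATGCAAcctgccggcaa

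In 8 of these 10 genes the match was the form with C at the free position (TGATGCAA or its complement), and GARS1 and ASNS carried A there. Positions of the first matching base are counted from the gene start, with negative values upstream. Farthest upstream were CHAC1 at -209 (chr15:40953251-40953280, plus strand), AARS1 at -187 (chr16:70289675-70289704, minus strand) and ASNS at -68 (chr7:97872458-97872487, minus strand). CEBPG had the match at -42 (chr19:33374060-33374089, plus strand) and GARS1 at -33 (chr7:30594834-30594863, plus strand). In the other synthetases it began within 15 bases of the start. The positions were -13 in IARS1 (chr9:92293692-92293721, minus strand), -4 in MARS1 (chr12:57488053-57488082, plus strand) and -2 in CARS1 (chr11:3057407-3057436, minus strand). In TARS1 (chr5:33440956-33440985, plus strand) and NARS1 (chr18:57621804-57621833, minus strand) the match began after the start, at 3 and 15. The palindromic site of the NFI family, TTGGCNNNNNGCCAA, was found in none of the 32 member promoters and in 10 of the 27305 genes (0.0366%), which says only that these letters are not in this window.

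In the control samples the members differed widely in level. Levels between genes are compared as FPKM, the deposited value per kilobase of gene length. ATF4 was the most abundant of the 40, at 379 ± 16.7 FPKM (SD, n = 3) in the controls and 374 ± 16.5 FPKM (SD, n = 3) after KD. The serine synthesis enzyme PSAT1 followed at 119 ± 1.25 FPKM in the controls, then EIF4EBP1 at 107 ± 1.48 FPKM and the pseudokinase gene TRIB3 at 104 ± 13.2 FPKM, and the last 2 of these did not differ beyond their spread. Among the synthetases the control levels ran from 91.8 ± 2.23 FPKM for EPRS1 to 6.96 ± 0.584 FPKM for HARS1. NUPR1 had the lowest level of all members in the controls, at 0.721 ± 0.209 FPKM, below CTH at 1.56 ± 0.125 FPKM and CBS at 1.79 ± 0.129 FPKM.

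**Figure D1:**
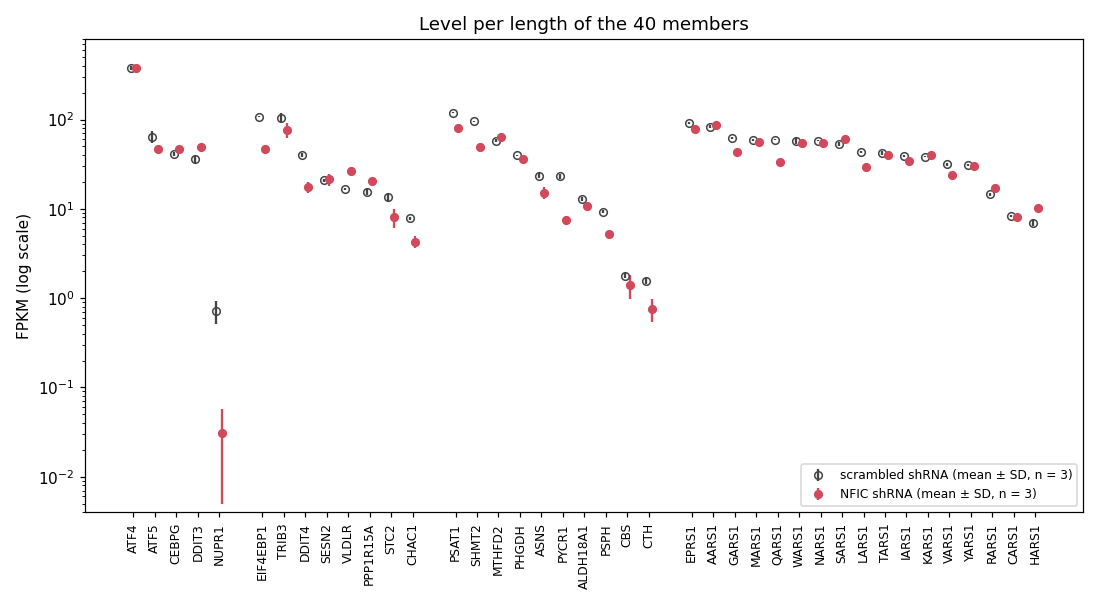
Level per gene length of each member in FPKM (log axis), as mean ± SD over 3 samples, with scrambled controls as open points and NFIC KD as red points, grouped by role and ordered by control level. ATF4 stands at the top at 379 and 374 FPKM in the 2 groups, and NUPR1 at the bottom, with the widest gap between the groups.

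With NFIC KD, 28 of the 40 members were called at an adjusted p under 0.05 in the test across all genes (edgeR), against 59.9% of all genes tested. Of these, 21 were lower and 7 higher, against 30.3% and 29.6% of all genes. The KD samples lay below all control samples for 22 members and above them for 6, against 33.0% and 32.2% of all genes. Because the members were chosen with this comparison known, nothing is read from these counts. The median log2 fold change of the 40 was -0.23, and that of all genes tested was -0.011. Summed over the members the level was 8353, 7908 and 8413 CPM in C1, C3 and C4 and 7233, 7366 and 6736 CPM in N1, N2 and N3. The summed level did not overlap between the groups. In bulk RNA, fewer cells with a program and less of its RNA per cell cannot be told apart.

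NUPR1 encodes a small chromatin-associated protein that is induced by many cell stresses. Its raw counts were 102, 68 and 106 in C1, C3 and C4 and 2, 2 and 8 in N1, N2 and N3. Every KD sample was far below every control sample, with N3 the highest of the 3 and C3 the lowest of the controls. The summed counts, 12 against 276, give 4.40% of the control level after scaling, with an exact 95% interval of 2.24 to 7.81 that covers counting error only. N1 and N2 were below the limit of 3 counts. The fitted log2 fold change was -4.48 (standard error 0.39), and without N3 it was -5.41. NUPR1 (ENSG00000176046) lies on the minus strand of chromosome 16 from 28532708 to 28539008 (GRCh38, GENCODE release 44).

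The mRNA of ATF4 did not follow NUPR1. It was at 968, 923 and 1005 CPM in C1, C3 and C4 and at 928, 992 and 907 CPM in N1, N2 and N3, and the groups overlapped. Its log2 fold change was -0.04 (standard error 0.052). ATF5, a related factor that is also controlled at translation, was at 209, 155 and 202 CPM in the controls and at 146, 145 and 117 CPM after KD. All 3 KD samples were below C3, the lowest control, and the log2 fold change was -0.47 (standard error 0.12). Without N3 it was -0.37 and no longer called. MIR4751, a microRNA gene that lies wholly in exonic bases of ATF5, held a mean of 508.5 counts, so reads over shared bases can be counted for both genes. NUP62, on the opposite strand, shares 19.5% of the exonic bases of ATF5 and had a mean of 1668.5 counts and a log2 fold change of -0.19.

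DDIT3 and CEBPG were both higher, unlike ATF5. DDIT3, which encodes the stress factor CHOP, was at 50.3, 42.8 and 48.7 CPM in the controls and at 64.8, 67.5 and 62.9 CPM after KD. The groups did not overlap, and the log2 fold change was 0.46 (standard error 0.067). The 3′ end of DDIT3 overlaps MARS1 on the opposite strand, with 27.2% of its exonic bases in exons of MARS1. The library kit named in the labels is not a directional one, so reads from the shared bases cannot be told apart by strand. MARS1 had a mean of 9202.7 counts and a log2 fold change of -0.08, against a mean of 1256.2 counts for DDIT3. Part of the DDIT3 count may therefore be reads of MARS1. CEBPG, a C/EBP protein that pairs with ATF4, was higher by a smaller amount, at 168 ± 8.19 CPM in the controls and 192 ± 3.31 CPM after KD (SD, n = 3 each), which is 0.19 on the log2 scale (standard error 0.051).

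**Figure D2:**
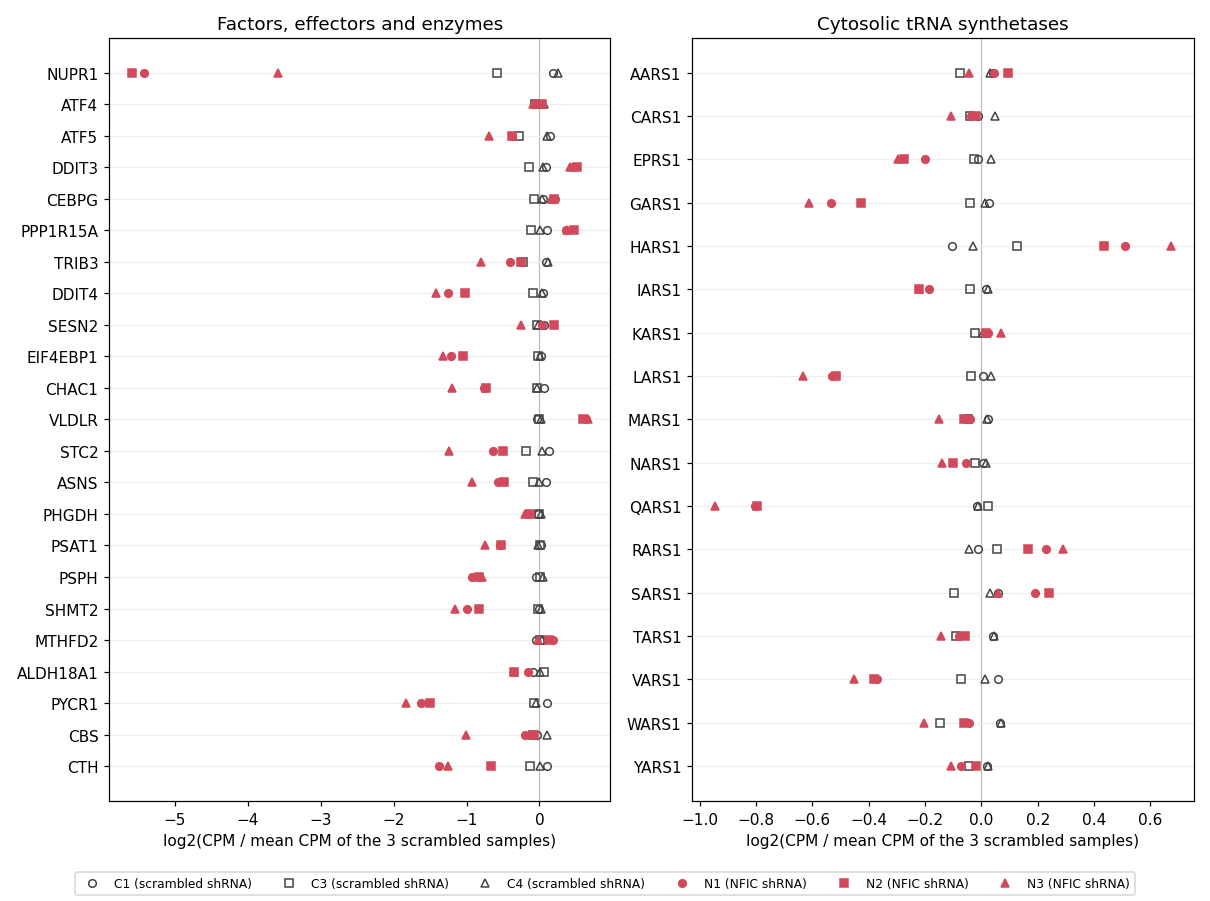
Each sample's CPM of each member as log2 of its ratio to the mean of the 3 controls, with factors, effectors and enzymes on the left and the cytosolic tRNA synthetases on the right (on a narrower scale). Open symbols are C1, C3 and C4, red symbols N1, N2 and N3. NUPR1 lies farthest to the left, PYCR1 next, and N3 (red triangle) is the lowest KD sample for 30 of the 40 genes.

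Among the effectors and feedback genes, 5 of 8 were lower (62.5%) and 2 higher (25.0%), against 30.3% and 29.6% of all genes. Without the filter on low counts 3 were lower. DDIT4, which encodes an inhibitor of mTORC1 signaling, was at 86.2, 78.2 and 85.8 CPM in the controls and at 35.0, 41.2 and 31.2 CPM after KD. No KD sample came near the lowest control, and the log2 fold change was -1.22 (standard error 0.083). EIF4EBP1, which encodes the translation repressor 4E-BP1, was at 96.4, 93.7 and 95.7 CPM against 41.1, 45.9 and 38.1 CPM. Its controls were within a narrow range and its log2 fold change was -1.19 (standard error 0.066). DDIT4 and EIF4EBP1 therefore stood at 42.9% and 43.8% of their control levels.

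CHAC1, which encodes an enzyme that degrades glutathione, was at 17.0, 15.9 and 15.9 CPM in the controls and at 9.61, 9.78 and 7.11 CPM after KD. STC2, which encodes the secreted protein stanniocalcin 2, was at 91.4, 73.3 and 85.9 CPM and at 53.6, 58.8 and 35.5 CPM. For both genes the groups did not overlap and N3 was the lowest sample, with log2 fold changes of -0.88 (standard error 0.11) and -0.76 (standard error 0.17). STC2 was not called when no filter on low counts was used. TRIB3, whose product binds ATF4 and limits the response, was at 341, 274 and 346 CPM in the controls and at 242, 269 and 183 CPM after KD. N2 came close to C3, and the log2 fold change of -0.47 (standard error 0.15) was no longer called without C4 (-0.41), without N3 (-0.32) or without the filter on low counts (-0.47).

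SESN2, which encodes a leucine-sensing inhibitor of mTORC1, was at 76.4, 71.4 and 72.5 CPM in the controls and at 75.5, 84.4 and 61.6 CPM after KD. The controls lay inside the range of the KD samples and the log2 fold change was 0.01. PPP1R15A, which encodes GADD34, the subunit that directs dephosphorylation of eIF2alpha, was at 51.5, 44.3 and 48.2 CPM and at 61.9, 66.6 and 62.5 CPM. It was above all controls in every KD sample (log2 fold change 0.41, standard error 0.066). VLDLR, the very-low-density lipoprotein receptor gene, was at 156, 159 and 162 CPM and at 247, 240 and 251 CPM, the largest increase among the members at 0.63 (standard error 0.048). An antisense transcript, ENSG00000286670, lies wholly in exonic bases of VLDLR and had a log2 fold change of 0.66. As the kit is not directional, its counts can be reads of VLDLR.

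Of the 10 enzymes of amino acid and one-carbon metabolism, 8 were lower and none was higher at an adjusted p under 0.05 (edgeR), against 30.3% and 29.6% of all genes, and their median log2 fold change was -0.62. Because these genes were chosen with the comparison known, the counts by role are a description only. Summed, they were at 1641 ± 14.0 CPM in the controls and at 1198 ± 82.5 CPM after KD (SD, n = 3 in each group), 73.0% of the control level. The lowest was PYCR1, which makes proline from its cyclic precursor in mitochondria, at 72.7, 64.2 and 65.5 CPM against 21.8, 23.9 and 19.0 CPM. All KD samples were under the lowest control by more than the spread of either group, and the log2 fold change was -1.64 (standard error 0.081). An antisense gene, ENSG00000263585, lies wholly in exonic bases of PYCR1 and had a log2 fold change of -1.68. As the kit is not directional, the counts of this antisense gene can be reads of PYCR1. ALDH18A1, which catalyses the step before it in proline synthesis, was at 49.3 ± 2.56 and 40.4 ± 3.13 CPM (SD, n = 3 in each group), or -0.29 on the log2 scale (standard error 0.070).

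In the serine pathway the 3 enzymes differed in size of change. PHGDH, the first enzyme, was at 366, 371 and 376 CPM in the controls and at 335, 338 and 323 CPM after KD, a log2 fold change of -0.16 (standard error 0.047). PSAT1, the second, was at 270, 267 and 262 CPM and at 183, 184 and 159 CPM (log2 fold change -0.60, standard error 0.057). PSPH, the last, was at 25.0, 25.9 and 26.7 CPM and at 13.6, 14.6 and 15.0 CPM (log2 fold change -0.84, standard error 0.080). The groups did not overlap for any of the 3 enzymes. Per gene length PSAT1 was the highest of them in the controls, at 119 ± 1.25 FPKM. PHGDH was at 39.8 ± 0.665 FPKM and PSPH at 9.25 ± 0.342 FPKM (SD, n = 3 each).

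SHMT2 and MTHFD2 act one after the other in mitochondrial folate metabolism. SHMT2, which transfers the one-carbon unit of serine to folate, was at 443, 440 and 450 CPM in the controls and at 224, 249 and 200 CPM after KD. This was 50.4% of the control level, or -0.99 on the log2 scale (standard error 0.064). MTHFD2, which oxidises the product, was at 275, 285 and 291 CPM and at 322, 311 and 279 CPM. N3 lay between the controls while N1 and N2 were above them, and the log2 fold change of 0.10 was not called, but without N3 it was 0.16 and called higher.

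ASNS, the asparagine synthetase gene and a classic ATF4 target, was at 124, 110 and 117 CPM in the controls and at 78.7, 83.5 and 61.4 CPM after KD. The groups did not overlap and the log2 fold change was -0.65 (standard error 0.095). Another gene in the annotation, ENSG00000284707, shares 49.3% of the exonic bases of ASNS on the same strand and had a log2 fold change of -0.69, so the counts of both can include the same reads. CTH and CBS, the enzymes that make cysteine from homocysteine, were the least abundant of the group. CTH had 89, 86 and 82 raw counts in the controls and 30, 56 and 37 after KD, a log2 fold change of -1.05 (standard error 0.20). CBS had 262, 285 and 284 counts against 221, 272 and 142, its groups overlapped in CPM, and its log2 fold change of -0.37 was not called; without N2 it was -0.55 and called lower, and it was also called without the filter on low counts. CBSL, a near-identical copy of CBS, held a mean of 5.5 counts, and reads of the pair may have been split or lost.

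The 17 cytosolic tRNA synthetases, each of which attaches 1 kind of amino acid to its tRNA (EPRS1 carries 2 such activities), were the most abundant role in sum. They were at 4394, 4188 and 4411 CPM in C1, C3 and C4 and at 3899, 3897 and 3686 CPM in N1, N2 and N3, a mean of 88.4% of the control level. Of the 17, 6 were lower, 3 were higher and 8 were not called at an adjusted p under 0.05 (edgeR), which is 35.3% lower and 17.6% higher against 30.3% and 29.6% of all genes. With upper-quartile normalization 11 were lower. That setting also gave 6503 of all genes lower in place of 5810, and a median of all genes of -0.068 in place of -0.011. In the main fit the median log2 fold change of the 17 synthetases was -0.09, and single values ran from -0.85 to 0.54.

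The lowest was QARS1, the glutaminyl enzyme, at 280, 288 and 281 CPM in the controls and 162, 163 and 147 CPM after KD (log2 fold change -0.85, standard error 0.052). LARS1, the leucyl enzyme, was at 353, 343 and 360 CPM and at 244, 246 and 227 CPM (-0.56, standard error 0.050). GARS1, the glycyl enzyme, was at 254, 242 and 251 CPM and at 172, 185 and 163 CPM (-0.52, standard error 0.054). For all of these the lowest control was well above the highest KD sample. VARS1, EPRS1 and IARS1, for valine, for glutamate and proline, and for isoleucine, had log2 fold changes of -0.40, -0.26 and -0.21, and their groups did not overlap.

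HARS1, the histidyl enzyme, went the other way, at 49.3, 57.9 and 51.9 CPM in the controls and 75.5, 71.7 and 84.5 CPM after KD (log2 fold change 0.54, standard error 0.072). RARS1, the arginyl enzyme, was at 49.7, 52.1 and 48.6 CPM and at 58.8, 56.2 and 61.3 CPM (0.23, standard error 0.060). For both, C3 and N3 were the highest samples of their groups. SARS1, the seryl enzyme, was called higher (0.17, standard error 0.058), but N3 at 217 CPM was level with C1, and the call was lost without C3 (0.11), N1 (0.16) or N2 (0.13) and with upper-quartile normalization (0.11). The enzymes for alanine, cysteine, lysine, methionine, asparagine, threonine, tryptophan and tyrosine (AARS1, CARS1, KARS1, MARS1, NARS1, TARS1, WARS1 and YARS1) had log2 fold changes between -0.10 and 0.03 and were not called. With upper-quartile normalization MARS1, NARS1, TARS1, WARS1 and YARS1 were called lower, at -0.14, -0.15, -0.15, -0.16 and -0.12. Without C3, TARS1 and WARS1 were called lower at -0.14 and -0.18.

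The synthetases were also grouped by their known relation to ATF4. The 12 that are commonly listed as ATF4 targets had a median log2 fold change of -0.09, with 4 lower (33.3%) and 1 higher (8.33%). Of all genes 30.3% were lower and 29.6% higher, so the share lower among these 12 synthetases was near that of all genes. The other 5 (HARS1, KARS1, QARS1, RARS1 and VARS1) had a median of 0.03, with 2 lower and 2 higher, and this median was -0.02 with upper-quartile normalization. These 5 held both the lowest and the highest value of the 17, and are too few for their counts to be set against all genes. By the structural classes of the catalytic domain, the 10 enzymes of class I had a median of -0.16 and the 7 of class II a median of 0.03, which was -0.02 with upper-quartile normalization and -0.01 without C3. EPRS1, which carries 2 activities, was counted once, in class I. The 7 members of the multisynthetase complex, a cytosolic assembly of these enzymes, had a median of -0.21 and the 10 outside it -0.08. No test was made between these groups.

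**Figure D3:**
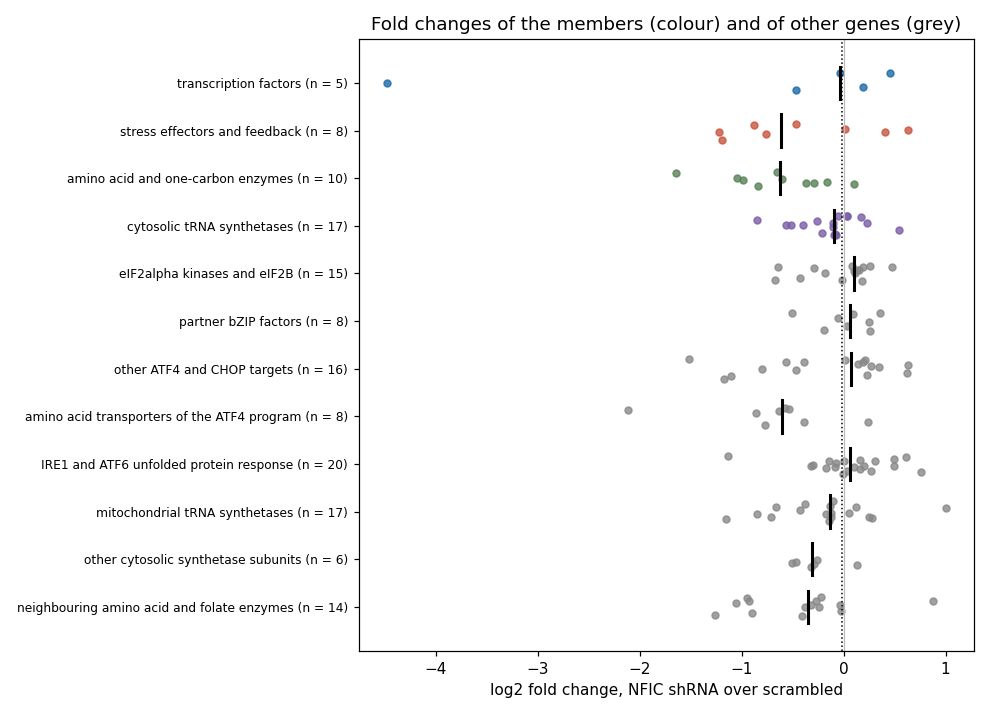
Log2 fold change of NFIC KD over scrambled control for each tested gene (points), by role for the members (colour) and by list for other genes of the pathway (grey), with list medians as black bars and the median of all genes tested as a dotted line. Enzymes of amino acid metabolism and amino acid transporters have medians of -0.62 and -0.60, while the eIF2alpha kinase and unfolded protein lists have 0.10 and 0.06.

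The counts for the other lists below are to be read against the 30.3% of all genes that were lower and the 29.6% that were higher. Of 6 other cytosolic subunits, 5 were lower and none was higher, with a median log2 fold change of -0.31. They included FARSA (-0.47, adjusted p = 6.39e-05) and the complex scaffold gene EEF1E1 (-0.51, adjusted p = 8.25e-05, both from edgeR). The mitochondrial tRNA synthetases, which serve translation inside mitochondria, had 7 of 17 lower (41.2%) and 3 higher (17.6%), and a median of -0.13. MARS2, EARS2 and WARS2 had log2 fold changes of -1.15, -0.71 and -0.66, whereas RARS2, AARS2 and HARS2 had 1.00, 0.28 and 0.25. Their sum was at 623 ± 29.0 CPM in the controls and 608 ± 9.43 CPM after KD (SD, n = 3 in each group).

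Upstream of ATF4, the 4 kinases of eIF2alpha were not uniform. EIF2AK4 (GCN2), which senses uncharged tRNA, fell from 72.3 to 53.8 CPM, or -0.43 on the log2 scale (adjusted p = 9.08e-06 by edgeR with Benjamini-Hochberg adjustment). EIF2AK2 (PKR) and EIF2AK1 (HRI) rose, with log2 fold changes of 0.26 and 0.15 (adjusted p = 0.00160 and 0.0306 from edgeR). EIF2AK3 (PERK) had 0.10 (adjusted p = 0.423 from edgeR). In the list of 15 kinases, eIF2B subunits and their regulators, 4 were higher and 4 lower (26.7% each), near the shares of all genes, and the median was 0.10. EIF2B5 and GCN1, which encode a subunit of the eIF2B exchange factor and the partner of GCN2, rose by 0.47 and 0.19, and IMPACT and DELE1 had -0.67 and -0.64. IMPACT encodes an inhibitor of GCN2 signaling and DELE1 the messenger of mitochondrial stress to HRI.

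Of 8 partner factors, 3 were higher (ATF7, NFE2L2 and CEBPB, with log2 fold changes of 0.36, 0.26 and 0.25) and CEBPA was lower (-0.51). The 8 amino acid transporters of the ATF4 program had 7 lower and 1 higher. SLC1A5, SLC7A5 and SLC7A1, which carry glutamine, large neutral and cationic amino acids, had log2 fold changes of -0.77, -0.86 and -0.63, and SLC38A2, a transporter of small neutral amino acids, had 0.24. Among 16 tested further targets of ATF4 and CHOP, 7 were lower and 7 higher, with a median of 0.07. MTHFD1L, GPT2 and ERO1A, for mitochondrial folate, alanine and disulfide formation, had -1.52, -1.10 and -0.80. SESN3, NIBAN1 and the tRNA exporter gene XPOT had 0.63, 0.62 and 0.27. Over all 8 lists, 73 of 104 tested genes were called in either direction, and 59.9% of all genes were called.

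The samples of a group also differed from each other, and for most members the same sample was the lowest. This comparison does not use the difference between KD and control. C3 was the lowest of the 3 controls for 30 of the 40 members, compared with 36.6% of all genes tested. N3 was the lowest of the 3 KD samples for 30 of the 40, compared with 35.8% of all genes. For 25 members (62.5%) both were the lowest, compared with 16.7% of all genes. With DESeq2 size factors, upper-quartile normalization or total counts in place of TMM, the number was 26, 29 and 27. The pattern was noticed in these data, genes are not independent replicates, and no test was made. C3 and N3 were also the deepest libraries of their groups, and the part of depth in the pattern was not tested. They also share a number in their deposited names, but the study's text names no control C3. Whether C3 and N3 were handled together is not stated, and this was not tested either.

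The lists differed in how often this was so. Of the 12 synthetases commonly listed as ATF4 targets, C3 was the lowest control for 12 and N3 the lowest KD sample for 11. Of the other 5 synthetases, C3 and N3 were each the lowest for 2, and both for 1. The synthetases also differed by the multisynthetase complex, with both lowest for 9 of the 10 outside it and 3 of the 7 in it. Which of these 2 groupings the difference goes with was not tested. All 8 amino acid transporters of the ATF4 program were lowest in both C3 and N3 (7 of 8 with DESeq2 size factors). For the mitochondrial tRNA synthetases it was 0 of 17, and for the IRE1 and ATF6 list 4 of 20. Other lists of ATF4 targets showed it less often than the transporters. It was 4 of 10 for the member enzymes of amino acid and one-carbon metabolism. For the further targets of ATF4 and CHOP it was 7 of 16 (43.8%). Enzymes of amino acid and folate metabolism not listed as ATF4 targets had 5 of 14 (35.7%), against 16.7% of all genes. Of the 10 members with the composite site in the promoter 8 were lowest in both samples, and of the 22 without it 11. Among tested genes other than members the share was 19.1% of 309 genes with the site and 16.0% of 11076 without it. Between KD and control, 4 of the 10 members with the site were lower and 1 higher (median log2 fold change -0.09). Of the 22 without it, 10 were lower and 6 higher (median -0.13), against 30.3% and 29.6% of all genes.

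The differences were small for most members. ATF4 in C3 was at 95.4% of the lower of C1 and C4, and in N3 at 97.8% of the lower of N1 and N2. ATF5 was at 76.6% and 80.9%, TRIB3 at 80.3% and 75.7%, and STC2 at 85.4% and 66.4%. ATF5, TRIB3 and STC2 were among the members with the widest spread among the controls. Among the synthetases WARS1 was the lowest in both, at 86.2% and 90.5%. NUPR1 was an exception, at 58.6% in C3 and 402% in N3, where it had 8 counts. When C3 and N3 were both left out, a choice made after seeing the data, 23 members were lower and 8 higher, and the median of all 40 was -0.20. In that fit 5559 of all genes were lower and 5466 higher, against 5810 and 5676 with all samples.

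**Figure D4:**
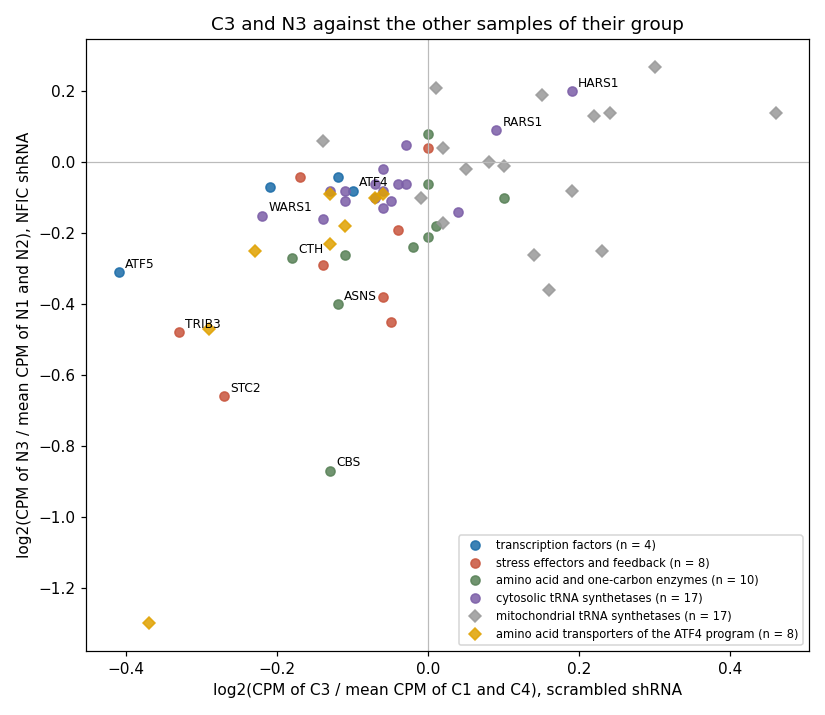
Log2 ratio of C3 to the mean of C1 and C4 (horizontal) and of N3 to the mean of N1 and N2 (vertical) for 39 members (NUPR1, at -0.81 and 1.92, is outside the plot) with the amino acid transporters and mitochondrial tRNA synthetases. TRIB3, ATF5, STC2, CBS and the transporters lie in the lower left, HARS1 and RARS1 in the upper right, and the mitochondrial enzymes mostly to the right of 0; the lowest point is the glycine transporter SLC6A9, named for this position.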

How the data were processed

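Bulk mRNA of 3 scrambled shRNA and 3 NFIC shRNA samples was sequenced in pairs of reads. The deposited counts were made by the authors with Trim Galore, STAR on GRCh38 and featureCounts on an Ensembl annotation; strand and multi-mapping settings are not given in the sources used here. The authors derived the FPKM values, also deposited, from counts scaled by size factors and from gene length. The deposited table also holds normalized counts and the authors' DESeq2 comparison, which were not used.

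edgeR 4.0.16 (R 4.3.3) with TMM, its filter on low counts, robust dispersions and the quasi-likelihood test compared the groups over 19182 genes, with Benjamini-Hochberg adjustment and a threshold of 0.05. The standard error is the log2 fold change divided by the square root of F. With 3 samples a group, an exact permutation test of 1 gene cannot go below p = 0.1. Gene positions and exon overlaps are from GENCODE release 44 (GRCh38) and promoters from RefSeq. The members and lists were chosen with earlier results of these data known. Named were all members, NFIC, the eIF2alpha kinases, and up to 3 genes per list and direction with the smallest adjusted p; a few genes of the lists are not reported here. Alternatives were DESeq2 1.42.0, its size factors, upper-quartile normalization, no filter, each sample left out and a replicate block. The test was checked on simulated data in which far fewer genes changed than were called here, so the check does not cover a change of most genes. A prior count of 2 was used for log2 CPM in the pairing check.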

Additional observations from a re-analysis of the deposited data

How the results depend on the processing

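Over 11 alternative fits and 1 fit without C3 and N3 that was chosen after seeing the data, the number of members called stayed between 27 and 32, and the count of all genes called was within 1.5 times its value in the report. Counts within a list moved further in a few fits. Upper-quartile normalization gave 11 cytosolic synthetases lower in place of 6, no filter on low counts gave 3 effectors lower in place of 5, and without N3 there was 1 factor lower in place of 2 and 1 enzyme higher in place of 0. The other cytosolic subunits had 1 higher in place of 0 with DESeq2 size factors and without N2, and the enzymes 1 higher without C3 and N3. No called member changed sign, and NFIC stayed lower in every fit. Upper-quartile normalization moved the median of all genes from -0.011 to -0.068 and the split of calls from 5676 higher and 5810 lower to 4953 and 6503. With it the median log2 fold change was -0.29 for all members, -0.15 for the cytosolic synthetases, -0.21 and -0.02 for classes I and II, -0.27 and -0.14 inside and outside the multisynthetase complex, and -0.15 and -0.02 for the synthetases listed and not listed as ATF4 targets. The last of these had been 0.03. Without C3 and N3 it was 0.01. Leaving out 1 sample at a time gave medians from -0.25 to -0.17 for all members and from -0.11 to -0.05 for the cytosolic synthetases, the latter nearest to 0 without N3, from -0.20 to -0.12 for class I, from -0.01 to 0.03 for class II and from -0.23 to -0.20 for the complex. The causes were not tested. With the replicate number of the labels as a block, 28 members were called, as without it, and 10983 genes against 11486. By these labels C3 is replicate 2, and it was set beside N2. The deviations of same-numbered samples correlated at 0.0563, -0.0862 and -0.0446 across genes, so the replicate numbers were not taken to pair the samples. C3 and N3 share a number only in their names, and a pairing by names was not tested. DESeq2 called 28 members and 10176 genes. Depth limits NUPR1, with 2, 2 and 8 counts after KD, and CTH.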

Other observations

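The other arms of the unfolded protein response were mixed. Of 20 genes of the IRE1 and ATF6 arms, 8 rose and 4 fell at an adjusted p under 0.05 (edgeR), against 29.6% and 30.3% of all genes, with a median log2 fold change of 0.06. The chaperone genes DNAJC3 and DNAJB9 and the ER protein gene CRELD2 had log2 fold changes of 0.49, 0.76 and 0.61. SEL1L and EDEM1, of ER-associated degradation, had -1.13 and -0.30, and ATF6 had -0.17.

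Enzymes of amino acid and folate metabolism beside those listed as ATF4 targets had 11 of 14 tested genes lower (78.6%) and 1 higher (7.14%), against 30.3% and 29.6% of all genes, and a median log2 fold change of -0.35. AHCY and MAT2A of the methionine cycle had -1.26 and -0.90 (adjusted p = 8.73e-12 and 2.75e-10 from edgeR), and the branched-chain aminotransferase gene BCAT1 had -1.06. ALDH4A1, which acts in proline breakdown, had 0.88, with levels of 7.56 CPM in the controls and 13.9 CPM after KD.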
